A study of Mus musculus with 12 samples.

Results

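The liver response to methyl methanesulfonate (MMS) that wild-type mice and mice lacking Aag have in common was described from all 12 arrays of the series, 6 from MMS-treated and 6 from untreated animals. The effect of treatment was estimated over both genotypes at once, with genotype as a separate additive term, and genes that moved in the same direction in both genotypes were then described. A gene was called when this common effect had an adjusted p below 0.05, and shared when, in addition, every MMS array lay beyond every untreated array in the same direction within each genotype. By this rule 809 of 12393 measured genes were shared, 304 of them higher and 505 lower after MMS.

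All animals were C57Bl/6J mice aged 6 to 8 weeks, and each of the 4 groups held 3 animals with 1 Affymetrix array each: untreated wild type, MMS-treated wild type, untreated Aag knock-out and MMS-treated Aag knock-out. The treated animals had received MMS once, at 75 mg/kg into the peritoneum, and their livers were collected 6 hours afterwards. The sources used here do not say whether the untreated animals were injected with vehicle, how the Aag allele was disrupted, or at what time of day tissue was taken. No litter, date or other batch is recorded.

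MMS transfers methyl groups to DNA bases and also reacts with proteins and thiols. Aag, also named Mpg, is the glycosylase that cuts methylated purines out of DNA and so opens base excision repair, in which the abasic site left behind is cleaved, refilled and ligated. Cells answer alkylation through several programmes. Damaged DNA activates p53, misfolded protein in the endoplasmic reticulum (ER) activates the unfolded protein response with its branches ATF6, IRE1 and PERK with ATF4, electrophiles activate NRF2, and liver cells react to inflammatory cytokines and glucocorticoids with plasma proteins and metallothioneins.

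The labels were checked on Mpg itself. At 1 of its 2 probe sets all knock-out arrays lay at 5.75 or below and all wild-type arrays at 6.21 or above on the log2 scale, while the other probe set overlapped between genotypes. Neither probe set was called for treatment (0.22, adjusted p = 0.374, and 0.26 ± 0.13, adjusted p = 0.235). Markers of hepatocytes were high in every array, with a mean log2 value over 20 genes of 13.36 to 13.62. The 12 array medians ran from 7.42 to 7.75. Untreated knock-out array 3, MMS wild-type array 1 and MMS knock-out array 3 each correlated best with an array of another group. Each array also carries control probe sets for the 5' and the 3' end of actin and Gapdh transcripts, and the difference between the ends (5' minus 3') depends on RNA integrity and on the length of the labelled product. It was -2.66 to -2.27 (log2) in untreated arrays. The difference lay above that range in MMS wild-type array 2 (-2.0), MMS knock-out array 1 (-1.61) and MMS knock-out array 2 (-1.51), so the fits were repeated without these 3 arrays, which leaves 1 treated knock-out array that is assumed to vary like the others. The part of RNA integrity in the results was not tested. Counts of named genes cover all that the naming rule in the processing section picks, also some that the text does not mention. Of the 97 shared genes named here, 76 kept their call whichever single array was left out, 80 kept it with the 5' to 3' difference as a covariate and 39 kept it without the 3 arrays. In the 58 that lost it there, the change was 0.57 to 1.16 times that with all arrays (median 0.886), in a fit with fewer samples.

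Across the array, 2064 of 22626 probe sets were called for MMS, which is 9.12%, with 851 higher and 1213 lower. Higher calls made up 41.2% of all calls in the deposited values, 53.7% when the arrays were quantile-normalized again and 62.7% when array medians were made equal, so the balance of directions depended on the scaling. Shared were 1334 probe sets (5.9%), and 1698 (7.5%) had treated arrays beyond untreated arrays the same way within both genotypes whatever their p. Opposite separation, higher in 1 genotype and lower in the other, was seen in 423 probe sets. Of the 730 called probe sets that were not shared, 489 were separated in wild type only, 236 in the knock-out only and 5 in neither. No called probe set had opposite signs in the genotypes.

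A stricter rule asks for evidence in each genotype by itself. When the larger of the wild-type and knock-out p was adjusted over all probe sets, limma called none (0%, smallest adjusted p = 0.0655), with 1456 probe sets (6.44%) at an unadjusted p under 0.05. When each genotype was adjusted separately, 114 probe sets (0.504%) passed in both with the same sign, 33 higher and 81 lower. That count ranged from 0 (without untreated knock-out array 1, or without MMS knock-out array 1 or 2) to 480 (without MMS knock-out array 3), and it was 0 with the 5' to 3' covariate. The test of the difference between the genotypes' responses also called none (0%, smallest adjusted p = 0.0649), with 4009 probe sets (17.7%) at an unadjusted p under 0.05. Other filters, array weights and single arrays moved both counts away from 0, as given in the closing section, and a p above the threshold does not show that the genotypes responded alike. Over all probe sets 58.1% had the same sign in both genotypes, and the responses correlated at r = 0.314 (Spearman 0.241), a description across probe sets, which are not independent.

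**Figure D1:**
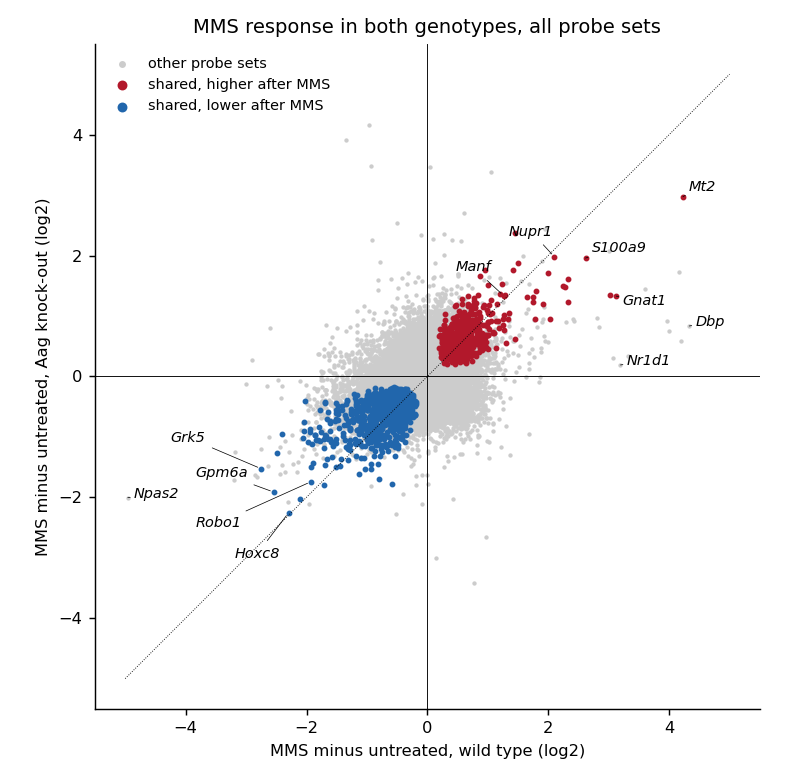
Log2 difference of MMS and untreated liver in wild type (x axis) and in the Aag knock-out (y axis), with 1 point per probe set for 22626 probe sets; shared probe sets are coloured by direction and the dotted line marks equal responses. The 502 shared probe sets that are higher and the 832 that are lower lie along the dotted line, and clock genes such as Npas2, Dbp and Nr1d1 lie near the x axis or well off the line.

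Among the shared genes the change was of moderate size. The median absolute change was 0.61 on the log2 scale, and 34 shared genes rose and 72 fell at least 2-fold. The knock-out response divided by the wild-type response had a median of 0.936 over the shared genes, with quartiles of 0.663 and 1.29. The rule asks for the same direction and full separation in both genotypes, which favours ratios near 1, so this describes the selected genes only. The wild-type response was the larger in 131 of the 304 shared higher genes and in 310 of the 505 shared lower genes. For 87 of the 809 shared genes the difference between the responses had an unadjusted p under 0.05, against 18.5% of all genes. Among the 87 were Gnat1, Icam1, Pdk4, Col1a1 and Cry1 below.

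The largest shared increase was that of Mt2, which with Mt1 encodes the metallothioneins, small cysteine-rich proteins that bind zinc and other metals and react with electrophiles. Mt2 measured 9.76, 8.39 and 9.70 (log2, animals 1 to 3) in untreated wild type and 13.39, 13.81 and 13.33 after MMS. In the knock-out it measured 9.66, 8.42 and 11.00 without and 12.45, 13.63 and 11.92 with MMS. The groups did not overlap in either genotype, and untreated knock-out array 3 was the highest of the untreated arrays. The common change was 3.60 ± 0.46 (standard error), or 12.1-fold (adjusted p = 0.00211), made of 4.23 in wild type and 2.97 in the knock-out. Mt1 rose by 1.97 ± 0.30 (3.92-fold, adjusted p = 0.00465). Untreated values of Mt1 reached 12.22 in wild type and 13.29 in the knock-out, where array 3 was again highest, while treated values ran from 13.83 to 14.29. The zinc importer Slc39a14 rose by 0.57 ± 0.12, and the exporter Slc30a1 stood at 0.38 ± 0.12 (adjusted p = 0.0619). Of the 8 measured metallothioneins and zinc transporters 3 were called higher and all 3 were shared, against 4.11% of all genes called higher and 2.45% shared higher. Without the 3 arrays of high 5' to 3' difference Mt2 kept its call, and Mt1 and Slc39a14 lost it at changes of 2.05 and 0.63 (adjusted p = 0.0535 and 0.0749).

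The promoters of both metallothionein genes are shown because they carry metal response elements, the sites of the zinc-sensing factor MTF1. The sequences are the 250 bases before the RefSeq start site (GRCm38.p6), with the letters TGCACNC or TGCGCNC, on either strand, in capitals. The Mt2 window (chr8:94172368-94172617, plus strand) holds 3 matches, which begin 223, 128 and 50 bases before the start, and the Mt1 window (chr8:94178839-94179088, plus strand) holds 1, at 23 bases. These short motifs are common. TGCACNC was found in 15.5% and TGCGCNC in 26.7% of the 9887 measured genes with a promoter in the table. That search ran from 250 bases before to 50 after the start, over all listed starts of a gene. It also found TGCGCNC for Mt1, outside the bases printed here, so the matches per window are not totals.
Mt2: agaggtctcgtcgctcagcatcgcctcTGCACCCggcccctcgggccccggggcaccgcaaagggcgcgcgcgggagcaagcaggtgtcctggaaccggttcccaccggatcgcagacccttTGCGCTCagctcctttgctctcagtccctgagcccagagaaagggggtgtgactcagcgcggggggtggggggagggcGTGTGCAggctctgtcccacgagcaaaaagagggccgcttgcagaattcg
Mt1: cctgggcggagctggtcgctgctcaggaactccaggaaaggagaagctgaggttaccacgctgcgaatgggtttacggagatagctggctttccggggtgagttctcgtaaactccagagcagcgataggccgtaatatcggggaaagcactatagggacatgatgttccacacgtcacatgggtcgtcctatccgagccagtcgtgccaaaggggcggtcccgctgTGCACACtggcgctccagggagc

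Genes of the ER folding machinery followed. Of 36 measured chaperones and components of ER-associated degradation 9 were called higher and none lower, and 7 were shared (4.11% and 2.45% of all genes). The list's median change was 0.25, against -0.06 over all genes. All 7 kept their call when any 1 of the 12 arrays was left out, and 4 kept it without the 3 arrays of high 5' to 3' difference, the losses being Atf6, Hspa5 and Selenos, with changes there of 0.67, 0.58 and 0.38 and adjusted p of 0.0598, 0.0603 and 0.0621. The mean over the list ran from 11.59 to 11.69 in untreated and 12.06 to 12.11 in treated wild type, and from 11.30 to 11.58 in untreated and 11.58 to 11.95 in treated knock-out. The wild-type groups were apart, and the knock-out groups overlapped narrowly.

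Creld2, a disulfide isomerase-like ER protein induced by folding stress, measured 10.34, 10.63 and 11.01 in untreated and 12.83, 13.11 and 12.85 in treated wild type (log2). In the knock-out it measured 9.77, 11.14 and 10.14 without and 12.46, 11.37 and 11.64 with MMS. The treated knock-out arrays overlapped none of the untreated ones, the closest being array 2 of each. The common increase was 1.87 ± 0.27 (3.66-fold, adjusted p = 0.00326). Manf, a secreted ER stress factor, went from 11.25, 11.79 and 11.74 to 12.73, 13.02 and 12.81 in wild type and from 10.72, 11.72 and 10.81 to 12.84, 12.15 and 12.28 in the knock-out. Its responses of 1.26 and 1.34 gave a common rise of 1.30 ± 0.19 (2.46-fold, adjusted p = 0.00342).

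Hspa5, or BiP, the central ER chaperone that also holds the stress sensors inactive, started from high levels. It measured 12.73, 12.94 and 12.94 in untreated and 13.58, 13.40 and 13.48 in treated wild type. In the knock-out it measured 12.58, 13.05 and 12.58 without and 13.46, 13.18 and 13.19 with MMS. The rise of 0.58 ± 0.11 (1.49-fold, adjusted p = 0.00832) was small but separated the arrays in both genotypes, and another probe set of Hspa5 was shared as well. Dnajb11, the co-chaperone of Hspa5, rose by 0.69 ± 0.11, and Atf6, the membrane-bound transcription factor of 1 branch of the response, by 0.87 ± 0.14 with the same change in both genotypes (0.87 and 0.87). Selenos, a selenoprotein of the degradation complex, rose by 0.38 ± 0.08, and Cdk2ap2, known as a partner of a cell cycle kinase rather than as a chaperone, by 1.35 ± 0.26. Called but not shared were the ubiquitin ligase Syvn1 (1.40, of which 1.90 in wild type and 0.90 in the knock-out) and Derl3. Gmppb, which makes GDP-mannose for protein glycosylation, and Arfgap3, a regulator of Golgi transport, were outside the list and rose by 1.48 ± 0.22 and 1.87 ± 0.28. MMS knock-out array 1 was the highest treated knock-out array for Creld2, Manf, Hspa5, Dnajb11, Selenos, Cdk2ap2, Gmppb and Arfgap3, and it was also the array highest in pancreatic acinar markers (mean 8.99, against 5.72 to 6.49 in untreated arrays). Without it and the treated wild-type array highest in those markers (7.49), all 7 shared members kept their call, with Creld2 at 1.74, Manf at 1.22 and Hspa5 at 0.51 (adjusted p = 0.0179, 0.0156 and 0.0362).

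The promoters of Hspa5 (chr2:34771840-34772089, plus strand) and Creld2 (chr15:88819396-88819645, plus strand) hold the ER stress element, the paired site of NF-Y and ATF6, which was searched as CCAAT and, after 9 further bases, CCACG, on both strands. Its letters are in capitals below. In Hspa5 it begins 65 bases before the start on the gene's strand, and in Creld2 at 126 bases on the opposite strand. The element was present in 18 of 9887 promoters (0.182%), in 10 of the 30 list genes with a promoter (33.3%) and in 2 of the 5 shared ones, so 10 of the 18 promoters that hold it belong to this list. Its letters were in 3 of 245 promoters of shared higher genes and in none of 399 of shared lower genes.
Hspa5: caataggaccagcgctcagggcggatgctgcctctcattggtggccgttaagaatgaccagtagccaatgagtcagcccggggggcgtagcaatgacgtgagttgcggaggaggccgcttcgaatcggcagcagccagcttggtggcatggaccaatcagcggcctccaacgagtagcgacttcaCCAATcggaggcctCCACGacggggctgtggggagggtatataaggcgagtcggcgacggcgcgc
Creld2: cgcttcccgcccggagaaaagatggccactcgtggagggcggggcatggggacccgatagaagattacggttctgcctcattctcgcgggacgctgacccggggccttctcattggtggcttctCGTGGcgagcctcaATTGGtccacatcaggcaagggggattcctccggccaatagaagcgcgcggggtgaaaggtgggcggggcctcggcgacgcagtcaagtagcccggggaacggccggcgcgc

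The PERK branch acts through ATF4, which switches on amino acid transport, tRNA synthetases and stress factors. Of 35 measured ATF4 targets 6 were called higher, none was called lower and 5 were shared, against 4.11% of all genes called and 2.45% shared, of which Nupr1 alone kept its call without the 3 arrays of high 5' to 3' difference. Nupr1, a small stress-induced chromatin protein, had the smallest p of the 15 leading increases. It measured 7.23, 7.45 and 7.97 in untreated and 9.50, 9.74 and 9.70 in treated wild type, and 7.32, 7.15 and 7.13 in untreated and 9.62, 9.51 and 8.41 in treated knock-out. The responses of 2.1 and 1.98 gave a common rise of 2.04 ± 0.20 (4.11-fold, adjusted p = 0.000689), and its other probe set was shared too. The tRNA synthetases Wars and Sars rose by 0.62 ± 0.11 and 0.51 ± 0.11. The transcription factors Atf5 and Cebpg rose by 0.45 ± 0.12 and 0.40 ± 0.10, but lost the call in 8 and 7 of the 12 fits that left out 1 array (adjusted p up to 0.0888 and 0.0773). Atf4 itself was called (0.60 ± 0.14, adjusted p = 0.0242) and not shared, since treated wild-type array 1 (11.46) lay within the untreated range of 11.25 to 11.61, and its call was lost in 6 of these fits. Inhbe, a liver-secreted member of the TGF-beta family outside the list, rose by 1.53 ± 0.28.

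The promoter of Nupr1 (chr7:126625471-126625720, minus strand) is the only 1 of 4 shared ATF4 targets with a promoter in the table that held the letters TGATGNAA, the core of the C/EBP-ATF site. The match, in capitals, begins 110 bases before the start on the opposite strand. The motif was found in 10 of 29 list promoters (34.5%) and in 3.13% of all 9887.
Nupr1: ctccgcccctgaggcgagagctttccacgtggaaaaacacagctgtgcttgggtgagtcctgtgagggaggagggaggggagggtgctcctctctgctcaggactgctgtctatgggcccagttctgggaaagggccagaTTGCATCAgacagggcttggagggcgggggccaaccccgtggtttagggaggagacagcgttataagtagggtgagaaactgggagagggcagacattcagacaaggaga

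**Figure D2:**
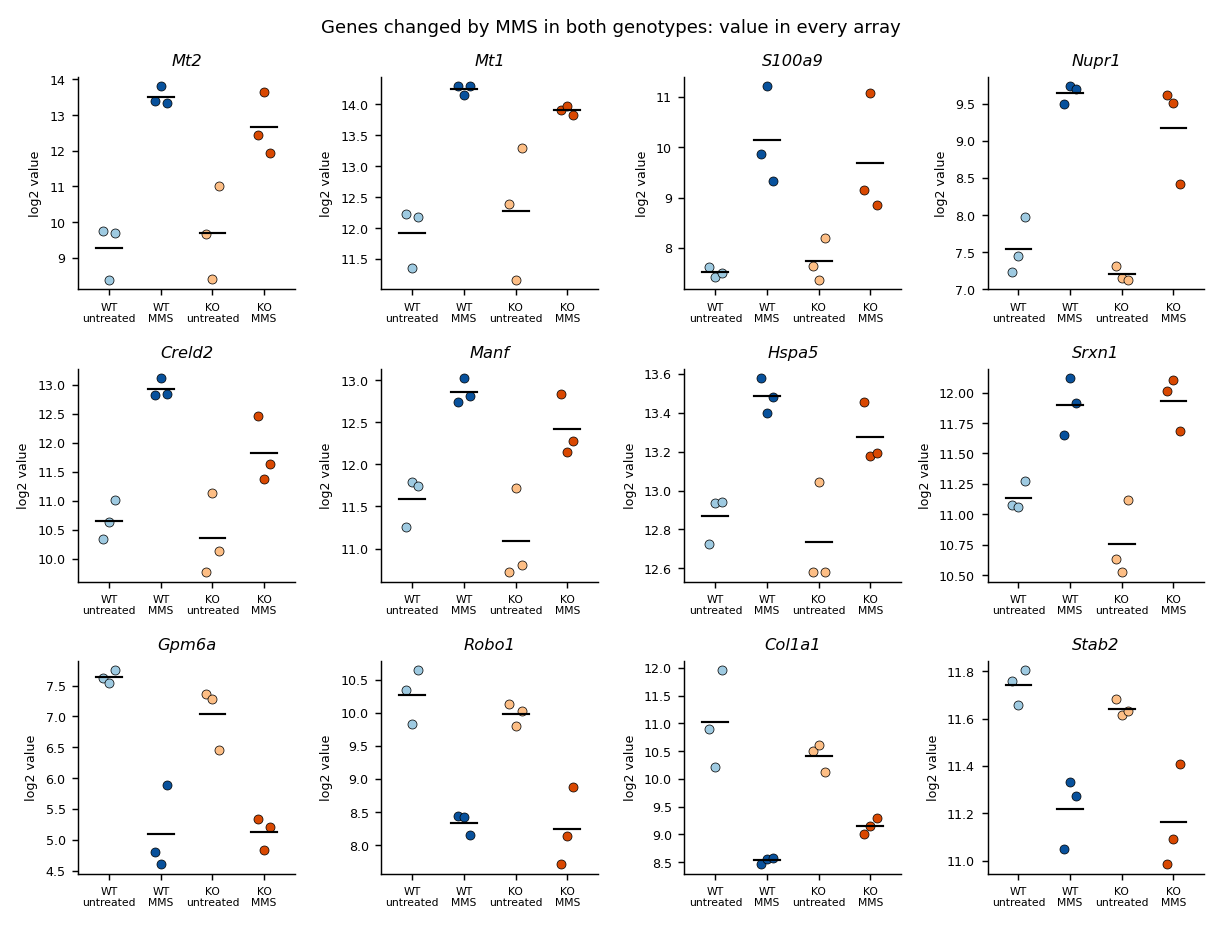
Log2 value of 12 shared genes in every array, 1 point per animal, with 3 animals in each of the 4 groups; the horizontal lines are group means and each panel has its own y axis, which does not start at 0. In each panel the treated arrays lie on 1 side of the untreated arrays within both genotypes, and the separation is widest for Mt2 and narrow for Hspa5 in the knock-out.

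Targets of NRF2, the regulator that electrophiles release from KEAP1, were called higher in 6 of 34 and lower in none, and 5 were shared, against 4.11% and 2.45% of all genes. After quantile normalization and median centring 9 and 10 were called, while the calls over all 12393 genes rose from 509 to 774 and 842. Srxn1, which repairs over-oxidised peroxiredoxins, measured 11.08, 11.06 and 11.28 in untreated and 11.65, 12.12 and 11.91 in treated wild type, and 10.63, 10.53 and 11.12 against 12.01, 12.10 and 11.69 in the knock-out. It rose by 0.97 ± 0.14 (1.95-fold, adjusted p = 0.00364), and all 3 of its other probe sets were shared. The carbonyl reductase Cbr3 rose by 0.74 ± 0.10 (adjusted p = 0.00236), with untreated values of 6.50 to 6.71 and treated values of 7.18 to 7.66. Aox1, an aldehyde oxidase (0.40 ± 0.10), Hmox1, heme oxygenase (0.69 ± 0.20), and Txnrd1, thioredoxin reductase (0.30 ± 0.08), passed more narrowly and lost the call in 6, 11 and 10 of the 12 fits without 1 array. The quinone reductase Nqo1 was called but not shared (0.20 in wild type and 1.36 in the knock-out, unadjusted p of the difference 0.00167), and its call was lost in 10 of those fits.

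Ribosome biogenesis genes, which build ribosomal subunits in the nucleolus, were called higher in 15 of 37 and lower in none. Of all genes 4.11% were called higher and 2.45% shared higher. The list had 35 of 37 values positive, against 5120 of 12393 over all genes, and a median of 0.40. Shared were 6 of the 15, among them the GTPase Gnl2 (0.79 ± 0.13), the export factor Ltv1 (0.91 ± 0.17) and Tsr1 (0.77 ± 0.17). The others were Wdr43 (0.70 ± 0.14) and Heatr1 (0.51 ± 0.11) of the small-subunit processome, and the polymerase subunit Polr1c (0.40 ± 0.10). Treated values of Gnl2 ran from 10.68 to 11.53 and untreated values from 10.31 to 10.61. Nop58, a core protein of box C/D particles, changed alike in both genotypes (1.04 and 1.07), but untreated and treated knock-out arrays overlapped, with 9.08 in untreated array 3 and 9.07 in treated array 2. The second probe set of Heatr1 pointed the other way without a call. Heatr1 lost the call without untreated wild-type array 1 (adjusted p = 0.0512), and Polr1c lost it in 5 of the 12 fits without 1 array. Proteasome subunits had 1 higher call in 33, a share below that of all genes, Psma7 (0.29 ± 0.08), which was lost in 10 of these fits, and 27 of 33 values were positive. After either scaling 6 proteasome genes were called, with 774 or 842 of all 12393 genes. Of the 6 shared ribosome biogenesis genes Wdr43 alone kept its call without the 3 arrays of high 5' to 3' difference, and the other 5 had 0.62 to 0.872 times their change.

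Cytosolic heat shock genes were called higher in 3 of 20 and lower in 1, against 4.11% and 5.93% of all genes (2.45% were shared higher). Shared were Bag3, the co-chaperone of Hsp70 that directs aggregates to autophagy (1.03 ± 0.21, with 1.01 and 1.05 in the genotypes), and its partner Hspb8 (0.59 ± 0.09, with 0.57 and 0.61). Hspb8 measured 12.19 to 12.47 in untreated and 12.72 to 13.15 in treated arrays, and 1 of its 2 other probe sets pointed the other way without a call. Hspa4 (0.44 ± 0.11) was called higher and Hspa4l (-0.52 ± 0.14) lower, neither of them was shared, and they lost the call in 7 and 10 of the 12 fits without 1 array.

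DNA damage genes had median changes near that of all genes (-0.06), at -0.04 for p53 targets and -0.01 for base excision repair and methyl reversal. Of 26 targets of p53 2 were called and shared, both higher. Of all genes 4.11% were called higher and 2.45% shared higher, for this and the next list. Aen, an exonuclease of apoptosis, measured 9.93, 10.21 and 10.29 in untreated and 10.79, 11.02 and 11.02 in treated wild type, and 10.12, 10.14 and 10.07 against 11.37, 11.03 and 10.70 in the knock-out, a rise of 0.86 ± 0.12 (1.82-fold, adjusted p = 0.00297). Mdm2, the ubiquitin ligase that degrades p53, rose by 0.64 ± 0.14 (0.41 and 0.87), with treated wild-type array 1 at 10.51 just above the highest untreated value of 10.47, and it lost the call without the 3 arrays of high 5' to 3' difference (0.46, adjusted p = 0.124). Plk2 and Trp53inp1 stood at -0.62 ± 0.18 and -0.63 ± 0.19 and were not called (adjusted p = 0.0508 and 0.0620), with another probe set of Trp53inp1 called lower. Among 20 genes of base excision repair and methyl reversal only Ung was called. Ung, the glycosylase that removes uracil rather than alkylated bases, measured 9.39, 9.46 and 9.77 in untreated and 11.46, 11.01 and 11.46 in treated wild type, and 9.25, 9.61 and 10.53 against 10.90, 10.63 and 10.70 in the knock-out. It rose by 1.36 ± 0.22 (2.57-fold, adjusted p = 0.00542), 1.77 in wild type and 0.95 in the knock-out. Fen1, the flap endonuclease of long-patch repair, stood at 0.46 ± 0.17 (adjusted p = 0.104), with another of its probe sets called higher.

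Acute phase plasma proteins were called higher in 4 of 29 and lower in none, and 2 were shared, against 4.11% of all genes called higher and 2.45% shared. Lbp, the lipopolysaccharide-binding protein, measured 10.41 to 10.49 in untreated and 11.17 to 11.37 in treated wild type, and 9.95 to 10.55 against 10.65 to 11.94 in the knock-out, a rise of 0.92 ± 0.19 (1.89-fold, adjusted p = 0.0126). Saa4, a constitutive serum amyloid, rose by 0.70 ± 0.15. Saa2 and Orm2, strongly inducible members, were called (1.68 ± 0.41 and 1.88 ± 0.50) but overlapped in the knock-out, where treated array 2 was high (13.57 and 11.50) and treated array 3 low (11.16 and 8.42), and they lost the call in 7 and 9 of the 12 fits without 1 array. None of the acute phase genes that were shared kept the call without the 3 arrays of high 5' to 3' difference. Of 21 cytokine signalling genes 2 were called higher and 2 lower, against 4.11% and 5.93% of all genes. The receptors Tnfrsf1a (0.67 ± 0.12) and Lifr (-0.43 ± 0.10) were shared in opposite directions, while 2.45% of all genes were shared higher and 4.07% lower. Lifr lost the call without untreated wild-type array 1, MMS wild-type array 2 or MMS knock-out array 1 (adjusted p up to 0.0664). Of 30 NF-kB targets and chemokines 1 was called and shared higher and 1 called and shared lower, near the shares of all genes given here. The higher one, the adhesion molecule Icam1, rose by 1.04 ± 0.16 (2.05-fold, adjusted p = 0.00447). Its rise was larger in wild type than in the knock-out (1.45 and 0.62, unadjusted p = 0.00197 for the difference). The lower one, the chemokine Ccl9 (adjusted p = 0.0382), lost its call in 10 of the 12 fits without 1 array. The chemokine Cxcl1 was not called (adjusted p = 0.0567), with 8.19, 12.22 and 8.68 in treated knock-out arrays.

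Neutrophil genes S100a9 and S100a8, which encode both chains of calprotectin, were among the leading increases. S100a9 measured 7.62, 7.42 and 7.51 in untreated and 9.86, 11.21 and 9.33 in treated wild type, and 7.64, 7.37 and 8.19 against 9.14, 11.08 and 8.86 in the knock-out. It rose by 2.29 ± 0.40 (4.88-fold, adjusted p = 0.00657), S100a8 rose by 1.78 ± 0.34, and array 2 was the highest treated array of each genotype for both genes. Of 16 measured neutrophil markers 3 were called higher and shared, against 4.11% of all genes called higher and 2.45% shared higher. Values were positive for 10 of the 16, against 5120 of all 12393 genes, with a median change of 0.08. The other shared marker was Chil3, a chitinase-like protein near the bottom of the scale (3.92 to 4.99 untreated, 4.85 to 5.98 treated). It lost its call without untreated wild-type array 3 or MMS wild-type array 3 (adjusted p up to 0.0572). The mean over all 16 was 5.74 to 6.04 and 6.16 to 6.55 in untreated and treated wild type, and 5.78 to 6.02 and 5.65 to 6.61 in the knock-out. In whole liver more cells of a type and more RNA per cell cannot be told apart, for these and for all cell type markers below.

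Glucocorticoid-induced genes were mixed. Fkbp5, the co-chaperone that restrains the glucocorticoid receptor, rose by 1.59 ± 0.30 (3.01-fold, adjusted p = 0.00920), from 8.16, 8.52 and 9.05 to 9.32, 10.38 and 10.28 in wild type and from 7.85, 8.08 and 9.48 to 10.65, 10.15 and 9.88 in the knock-out. Slc37a4, the glucose-6-phosphate transporter, rose by 0.78 ± 0.13. With Mt1 and Mt2, which are also in this list, 4 of 24 members were shared higher, against 2.45% of all genes. Shared lower was 1 member (4.07% of all genes), Ppargc1a, the coactivator that drives gluconeogenesis and mitochondrial genes (-1.18 ± 0.25). Across the list 10 of 24 values were positive, against 5120 of 12393 over all genes, with a median change of -0.20. Ppargc1a measured 10.44, 9.08 and 10.09 in untreated and 8.33, 8.21 and 8.22 in treated wild type, and 9.53, 9.05 and 9.89 against 8.48, 8.77 and 9.01 in the knock-out. Dusp1, a classical target, was called lower (-0.67 ± 0.18, lost in 10 of the 12 fits without 1 array), so the called members did not move in 1 direction. Without the 3 arrays of high 5' to 3' difference Mt2 alone of the 5 shared members kept its call, with Ppargc1a at -1.17 and Slc37a4 at 0.68 (adjusted p = 0.120 and 0.0749).

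The remaining leading increases have no common role. Gnat1, known as the transducin subunit of rod photoreceptors, measured 7.74, 6.91 and 7.88 in untreated and 10.65, 10.69 and 10.57 in treated wild type, and 8.40, 7.90 and 9.32 against 9.77, 9.59 and 10.25 in the knock-out. It rose by 2.23 ± 0.35 (4.68-fold), 3.12 in wild type and 1.33 in the knock-out (unadjusted p of the difference 0.00368). The transcript 2010003K11Rik rose by 2.19 ± 0.37, the transglutaminase Tgm1 by 1.69 ± 0.26 and the ephrin receptor Epha8 by 1.49 ± 0.26. Tgm1 and Epha8 were dim, with untreated values of 5.18 to 6.21 and 4.03 to 5.77 and treated values of 6.86 to 8.39 and 6.22 to 7.26. The first quartile of the mean level over all genes was 5.97. Untreated knock-out array 3 (10.15) reached the level of the lowest treated knock-out array for 2010003K11Rik.

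The leading shared decreases included membrane and adhesion proteins. Gpm6a, a membrane glycoprotein, went from 7.62, 7.55 and 7.75 to 4.80, 4.61 and 5.88 in wild type and from 7.37, 7.28 and 6.46 to 5.33, 4.83 and 5.21 in the knock-out, a fall of 2.23 (4.69-fold lower, standard error 0.24, adjusted p = 0.00106). Its other probe set was shared too. Robo1, a receptor of Slit guidance cues, went from 10.34, 9.83 and 10.64 to 8.45, 8.43 and 8.15 and from 10.13, 9.80 and 10.03 to 7.72, 8.13 and 8.88, with similar responses of -1.93 and -1.74 (common change -1.84 ± 0.19, adjusted p = 0.00104). The gap between treated and untreated arrays was wide for both genes in both genotypes.

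The homeobox gene Hoxc8 changed by -2.28 ± 0.36, though its treated values scattered from 4.10 to 6.43. Grk5, a kinase of G protein-coupled receptors, changed by -2.14 ± 0.34, and untreated knock-out array 3 (6.89) lay close to the treated arrays (6.23 to 6.78). Ccn4, a matrix-associated signalling protein, had the smallest p of the 15 leading decreases (-1.58 ± 0.14, adjusted p = 0.000569), with untreated values of 8.30 to 8.93 and treated values of 6.48 to 7.35. The transcription factor Sox4 changed by -1.45 ± 0.16, with 4 of its 5 other probe sets of the same sign. Clec2h, a lectin, changed by -1.75 ± 0.22 and alike in both genotypes (-1.70 and -1.80).

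The other leading decreases began with Slc34a2, a phosphate transporter of bile duct cells (-1.68 ± 0.31). Krt18, the other called and shared gene of 15 bile duct markers, stood higher at 0.41 ± 0.09. Of all genes 4.11% were called higher and 5.93% lower, and 2.45% and 4.07% were shared. The rest were Pkhd1, which encodes the ciliary protein fibrocystin (-1.54 ± 0.22), Syne1, a nuclear envelope linker (-1.53 ± 0.20), and the protocadherin Pcdh18 (-1.47 ± 0.27). With them went the adhesion receptor Adgre4 (-1.45 ± 0.22), Ifnz, an interferon (-1.43 ± 0.22), and Ripor2, an inhibitor of RhoA (-1.43 ± 0.26). Each of the 30 leading genes, 15 in each direction, kept its call when any 1 array was left out and with the 5' to 3' difference as a covariate, and 23 of 30 kept it without the 3 MMS arrays of high 5' to 3' difference. The 7 losses were 2010003K11Rik, Mt1, Fkbp5, Inhbe, Slc34a2, Pcdh18 and Ripor2.

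Collagens and other markers of hepatic stellate cells, the vitamin A-storing pericytes that make liver matrix, made up the list with the most shared decreases. Of 24 measured markers 9 were called, all lower and all shared, against 5.93% of all genes called lower and 4.07% shared lower. Col1a1, the main chain of type I collagen, measured 10.89, 10.21 and 11.95 in untreated and 8.47, 8.55 and 8.58 in treated wild type, and 10.50, 10.61 and 10.13 against 9.01, 9.14 and 9.30 in the knock-out. It changed by -1.88 ± 0.29 (3.67-fold lower, adjusted p = 0.00465), -2.49 in wild type and -1.26 in the knock-out. The treated arrays of each genotype lay close together, and untreated wild-type array 3 was the highest of all. Col5a2 (-1.14 ± 0.19), Col6a1 (-1.09 ± 0.17), Col3a1 (-1.03 ± 0.21), Col5a1 (-1.02 ± 0.17), Col1a2 (-0.98 ± 0.24), Col4a1 (-0.76 ± 0.14), the proteoglycan Lum (-0.86 ± 0.21) and the secreted glycoprotein Reln (-0.50 ± 0.11) fell too. For 8 of these 9 genes the wild-type response was the larger, with Reln as the exception (-0.43 and -0.56). Col1a2 lost the call without untreated wild-type array 1 or MMS wild-type arrays 2 or 3 (adjusted p up to 0.0600), and Lum without any of the 3 untreated wild-type arrays or MMS wild-type array 3 (up to 0.0665). The mean over the 24 markers was 8.58 to 9.20 and 8.13 to 8.34 in untreated and treated wild type, and 8.64 to 8.71 and 8.40 to 8.67 in the knock-out, so as a whole the list overlapped in the knock-out. Without the 3 arrays of high 5' to 3' difference Col1a1, Col5a2 and Col3a1 kept their call and the other 6 lost it.

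Endothelial markers were called lower in 5 of 24 and higher in none, and 4 were shared (5.93% and 4.07% of all genes). Stab2, the hyaluronan scavenger receptor of liver sinusoids, went from 11.76, 11.66 and 11.80 to 11.05, 11.33 and 11.27 in wild type and from 11.68, 11.61 and 11.63 to 10.99, 11.09 and 11.41 in the knock-out. The change of -0.50 ± 0.09 (1.42-fold lower, adjusted p = 0.00890) was alike in both (-0.52 and -0.48). The mannose receptor Mrc1 changed by -0.55 ± 0.10, the angiopoietin receptor Tek by -0.57 ± 0.10 and Plvap, of endothelial fenestrae, by -0.66 ± 0.13. The mean over all 24 was 9.05 to 9.24 and 8.71 to 8.82 in wild type and 8.96 to 9.17 and 8.99 to 9.23 in the knock-out, which overlapped there. Of the 4 shared genes Mrc1 alone kept its call without the 3 arrays of high 5' to 3' difference.

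Of 21 macrophage markers 3 were called lower and 1 higher, and 2 and 1 were shared. Of all genes 5.93% were called lower and 4.07% shared lower, and 4.11% were called higher and 2.45% shared higher, for this and the next list. Csf1r, the receptor of macrophage growth factor, changed by -0.67 ± 0.13, and Adgre1, or F4/80, by -0.64 ± 0.14, which lost the call without untreated wild-type array 1 (adjusted p = 0.0511). Marco, a scavenger receptor, stood higher at 0.92 ± 0.25 and lost the call in 10 of the 12 fits without 1 array. Lymphocyte markers were called lower in 3 of 21, of which Cd79b, part of the B cell antigen receptor (-1.0 ± 0.18), and Ptprc, the leukocyte phosphatase CD45 (-0.67 ± 0.12), were shared. Ptprc measured 8.73 to 9.11 and 8.06 to 8.35 in untreated and treated wild type, and 8.87 to 9.42 and 8.35 to 8.72 in the knock-out. None of 20 hepatocyte markers was called by limma (3 at an unadjusted p under 0.05, against 26.7% of all genes). Their mean ran from 13.46 to 13.51 in untreated and 13.36 to 13.62 in treated arrays.

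**Figure D3:**
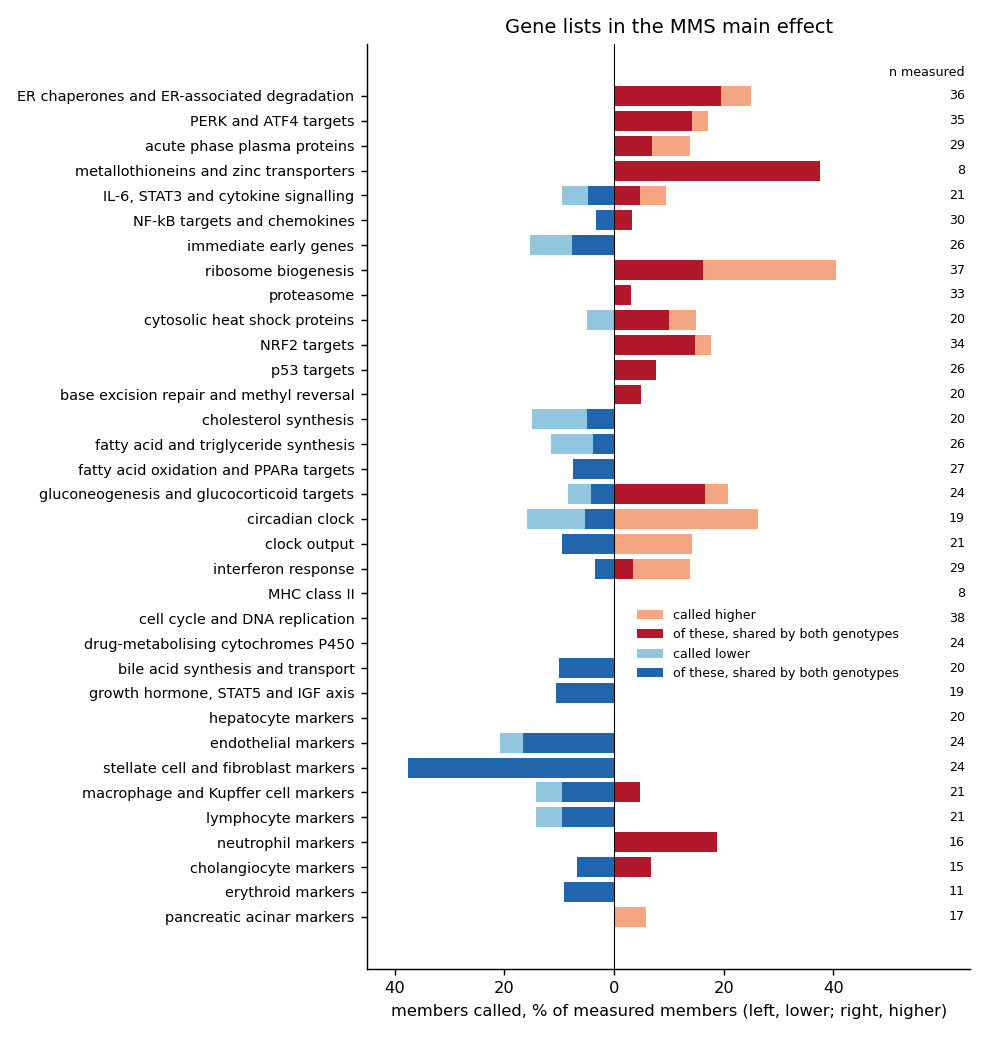
Share of the measured members of each gene list that were called for MMS in the common effect, in percent, with lower calls drawn to the left and higher calls to the right and the number measured at the right edge; dark bars are the members shared by both genotypes. Over all genes 4.11% were called higher and 5.93% lower. ER chaperones (9 of 36), ribosome biogenesis (15 of 37), metallothioneins and zinc transporters (3 of 8) and the circadian clock (5 of 19, none of these shared) reach far to the right. Stellate cell markers (9 of 24) reach furthest to the left, and cell cycle genes and cytochromes P450 have no bar.

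Growth hormone signalling, immediate early and fatty acid oxidation genes were called in 2 of 19, 4 of 26 and 2 of 27, all lower. Of all genes 5.93% were called lower and 4.07% shared lower. Stat5b and Stat5a, which carry the growth hormone signal, changed by -0.76 ± 0.15 and -0.57 ± 0.10 (adjusted p = 0.0120 and 0.00733), the only calls among 19 genes of this axis, and Stat5b lost its call without the 3 arrays of high 5' to 3' difference (-0.87, adjusted p = 0.0547). Stat5a measured 10.74 to 11.01 and 10.04 to 10.33 in untreated and treated wild type, and 10.78 to 10.99 and 10.34 to 10.59 in the knock-out, while a second probe set pointed the other way without a call. Btg1, an antiproliferative cofactor, changed by -1.16 ± 0.17 and the RNA-binding protein Zfp36l1 by -0.43 ± 0.10, out of 4 called of 26 immediate early genes, all 4 lower. Zfp36l1 lost the call without untreated wild-type array 1 (adjusted p = 0.0557) and after median centring. Pdk4, the kinase that shuts off pyruvate oxidation, changed by -1.16 ± 0.22, with a larger response in wild type (-1.77 and -0.55, unadjusted p = 0.00102 for the difference). Pdk4 and Ppargc1a were the only calls among 27 genes of fatty acid oxidation, and without those 3 arrays Pdk4 stood at -1.26 (adjusted p = 0.0607).

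In cholesterol synthesis 3 of 20 genes were called lower and none higher, and 1 was shared (5.93% of all genes were called lower and 4.07% shared lower). Hmgcs1, which makes HMG-CoA, measured 13.61, 13.78 and 13.67 in untreated and 12.84, 13.10 and 13.06 in treated wild type, and 13.83, 13.79 and 13.65 against 13.55, 13.47 and 13.54 in the knock-out. It changed by -0.46 ± 0.10 (1.38-fold lower, adjusted p = 0.0185), of which -0.69 in wild type and -0.24 in the knock-out (unadjusted p = 0.0169 for the difference), and its 3 other probe sets were shared as well. Without the 3 arrays of high 5' to 3' difference it stood at -0.54 (adjusted p = 0.0680). The list's median change was -0.59 in wild type and 0.03 in the knock-out, so the shared part of this list was this gene. Its promoter (chr13:119690101-119690350, plus strand) is shown for the sterol regulatory element, the site of SREBP factors, searched as TCACNCCAC on both strands and printed in capitals, which begins 137 bases before the start. The motif was in 1 of the 16 list promoters (6.25%) and in 1.5% of all 9887. Srebf1, the regulator of lipid synthesis, was called lower but not shared (-0.93 ± 0.23, lost in 6 of the 12 fits without 1 array), and Pnpla3, a lipid droplet protein, was shared (-0.59 ± 0.15) and lost its call in 4 of those fits and after quantile normalization or median centring.
Hmgcs1: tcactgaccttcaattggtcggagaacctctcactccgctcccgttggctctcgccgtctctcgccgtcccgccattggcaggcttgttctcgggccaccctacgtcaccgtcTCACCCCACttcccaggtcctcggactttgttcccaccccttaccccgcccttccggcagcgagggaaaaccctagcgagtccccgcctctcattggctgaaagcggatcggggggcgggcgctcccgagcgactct

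Bile acid genes had 2 shared decreases of 20, against 4.07% of all genes shared lower. These were Hsd3b7 (-0.40 ± 0.11) and Akr1d1 (-0.36 ± 0.10), steroid-modifying enzymes of the pathway. They lost the call in 8 and 10 of the 12 fits without 1 array and after median centring. Of 29 interferon response genes 4 were called higher and 1 lower, against 4.11% and 5.93% of all genes. The antiviral GTPase Mx2 (0.64 ± 0.14) and the RNA sensor Ifih1 (-0.48 ± 0.12) were shared in opposite directions. Of all genes 2.45% were shared higher and 4.07% shared lower. Ifih1 lost its call in 5 of the 12 fits without 1 array. None of 24 drug-metabolising cytochromes P450 was called by limma (1 at an unadjusted p under 0.05), none of 8 MHC class II genes (2) and none of 38 cell cycle genes (9). Of all genes 26.7% had an unadjusted p under 0.05 in this fit. Cell cycle values were negative for 35 genes and positive for 3, with a median of -0.70 in wild type and -0.10 in the knock-out. Over all genes 5120 of 12393 values were positive. The E-box CACGTG, a site of clock and other basic helix-loop-helix factors, reads the same on both strands. It was in 16.7% of 245 shared higher promoters, 8.27% of 399 shared lower promoters and 10.8% of all 9887. Several motifs were searched, and no share was tested. In the same order the shares were 13.9%, 21.3% and 15.5% for TGCACNC and 30.6%, 30.6% and 26.7% for TGCGCNC. For TGATGNAA they were 3.67%, 3.26% and 3.13%. For the antioxidant response element (TGACNNNGC) they were 17.1%, 15.3% and 16.3%, and for the STAT site (TTCNNNGAA) 8.98%, 7.77% and 8.45%.

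The shared decreases had long genes. The genomic span of a gene, from first to last annotated base in RefSeq (GRCm38.p6), had a median of 64.1 kb in shared lower genes, 14.0 kb in shared higher genes and 20.1 kb in all measured genes. Spans over 100 kb belonged to 38.5% of shared lower genes, 1.64% of shared higher genes and 11.5% of all. Robo1 spans 1020 kb, Ppargc1a 661.6 kb, Pkhd1 560.3 kb, Syne1 530.5 kb, Reln 460.3 kb, Gpm6a 281.4 kb and Grk5 206.4 kb, whereas Mt2 spans 0.95 kb, Nupr1 2.23 kb, Manf 3.19 kb, Hspa5 4.44 kb and Srxn1 5.85 kb. Short genes were not spared, as Sox4 (4.78 kb) and Hoxc8 (3.74 kb) show.

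Grouped by span, shared lower genes made up 1.47% of 3682 genes of at most 10 kb, 2.62% of 4079 genes of 10 to 30 kb, 4.66% of 3195 genes of 30 to 100 kb, 11.8% of 1118 genes of 100 to 300 kb and 20.5% of 303 genes over 300 kb. Shared higher genes made up 2.99%, 3.21%, 1.82%, 0.447% and 0% of these groups. The median change over all genes of a group went from -0.02 in the shortest to -0.34 in the longest (-0.32 in wild type and -0.43 in the knock-out). Long genes were dimmer, with a median log2 level of 6.10 against 7.48, but among genes with a mean of at least 8 the shares were 47.7% of 86 genes over 300 kb and 1.79% of 1679 genes of at most 10 kb. After quantile normalization the medians were 0.05 and -0.24, and after median centring 0.05 and -0.28.

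The pattern was present in every treated array and uneven among them. Each treated array was set against the mean of the untreated arrays of its genotype. For genes over 300 kb the median difference was -0.21, -0.35 and -0.34 in wild-type arrays 1 to 3 and -0.65, -0.39 and -0.18 in knock-out arrays 1 to 3. In each of the 6 it lay below that of genes of at most 10 kb, which ran from -0.06 to 0.07. The 3 arrays of high 5' to 3' difference (wild-type array 2 and knock-out arrays 1 and 2) had the 3 lowest medians for these genes. With all 12 arrays 24.8% of genes over 300 kb and 2.55% of genes of at most 10 kb were called lower. Without the 3 arrays the median for genes over 300 kb was -0.20, and 8.91% of them against 0.679% of the shortest were called lower. With the 5' to 3' difference as a covariate it was -0.27, and 23.8% were called lower. The part of RNA integrity in this pattern was not tested beyond these values.

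**Figure D4:**
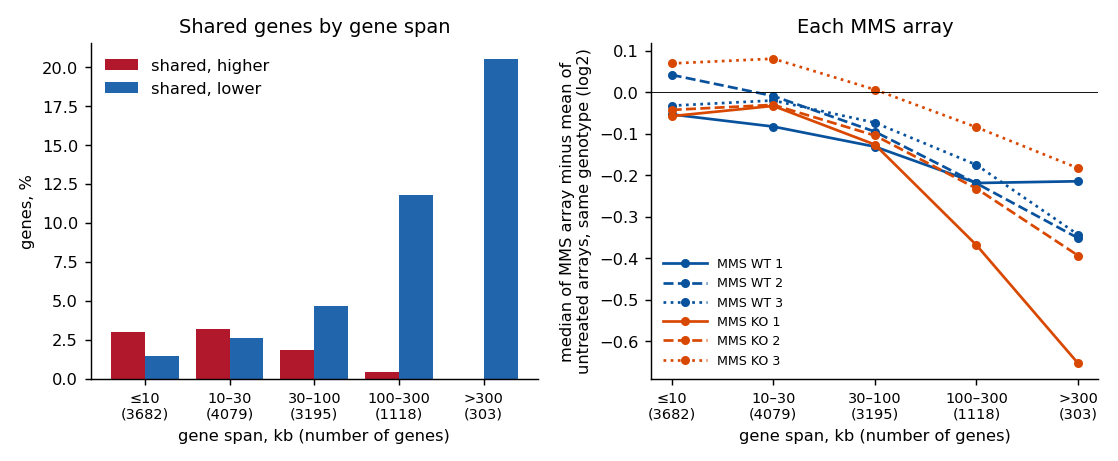
Left, percent of genes that were shared higher or shared lower in 5 classes of genomic span (kb, number of genes in brackets); right, for each of the 6 MMS arrays, the median log2 difference from the mean of the untreated arrays of the same genotype in those classes. The share of shared lower genes climbs from 1.47% to 20.5% with span, and all 6 lines end lower in the longest class than in the shortest.

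Clock genes were among the largest treatment effects that were not shared. The circadian clock runs on the activators CLOCK, NPAS2 and ARNTL, which are held back by PER and CRY proteins and adjusted by the receptor NR1D1. Of 19 clock genes 5 were called higher and 3 lower, against 4.11% and 5.93% of all genes. The shared set held 1 of the 19, Cry1, which was lower, and 4.07% of all genes were shared lower. Cry1 went from 10.95, 10.65 and 11.20 to 9.07, 9.15 and 9.01 in wild type and from 9.62, 10.12 and 9.55 to 8.89, 8.36 and 9.16 in the knock-out, with a change of -1.41 ± 0.20 (2.66-fold lower, adjusted p = 0.00326). Dbp, a clock-driven transcription factor, measured 8.19, 8.14 and 8.58 in untreated and 12.49, 12.77 and 12.64 in treated wild type. In the knock-out it was already 11.31, 10.64 and 13.04 without MMS and 12.49, 12.16 and 12.83 with it. Untreated knock-out array 3 was the highest Dbp value of all 12.

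Npas2 measured 10.20, 10.04 and 9.78 in untreated and 5.78, 3.99 and 5.37 in treated wild type. In the knock-out it measured 8.89, 9.20 and 5.89 without and 5.71, 6.07 and 6.18 with MMS, so that array 3 of the untreated animals lay among the treated ones. Its common change of -3.48 ± 0.65 had an adjusted p of 0.00911, and its second probe set pointed the other way without a call. Nr1d1 rose from 5.99, 7.22 and 6.21 to 9.24, 9.91 and 9.85 in wild type, while all 6 knock-out arrays lay between 9.72 and 10.48 (unadjusted p = 4.35e-05 for the difference of responses), and its call was lost in 10 of the 12 fits without 1 array. The untreated groups of the genotypes did not overlap for Dbp, Nr1d1, Npas2 and Cry1. Sphk2, a lipid kinase, followed the same order (4.0 in wild type and 0.76 in the knock-out). Dbp and Sphk2 lost the call without untreated wild-type array 1 or MMS wild-type arrays 2 or 3 (adjusted p up to 0.0563 and 0.0578). The part that the time of day at collection had in these values, and in clock-driven genes such as Pdk4 and Hsd3b7 that were shared, was not tested.

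**Figure D5:**
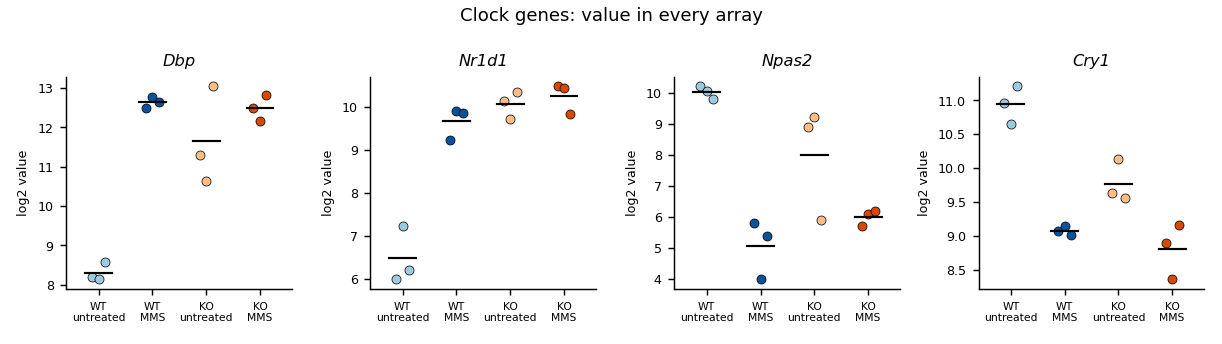
Log2 value of 4 clock genes in every array, 1 point per animal with group means as lines and a separate y axis per gene that does not start at 0. For Dbp, Nr1d1 and Npas2 every untreated knock-out array lies on the side of the untreated wild-type arrays where the treated ones are, and Cry1 is separated by treatment within both genotypes.

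Pancreatic acinar markers moved with single arrays. Their mean over 17 genes was 5.72 to 6.49 in untreated arrays, and it reached 7.49 in 1 treated wild-type and 8.99 in 1 treated knock-out array. Ctrb1, chymotrypsinogen, measured 11.06 in treated knock-out array 1 and 8.42 in treated wild-type array 1, against 4.95 to 6.83 in the other arrays. Only Bhlha15, a regulator of secretory cells, was called among them (2.95 ± 0.69), and it was not shared, with 8.96, 5.43 and 8.74 in treated knock-out liver, and lost the call in 6 of the 12 fits without 1 array. Without both arrays high in Ctrb1, 79 of the 97 named shared genes kept their call.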

How the data were processed

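RNA from 12 livers, 1 animal each, was hybridised to 1-colour Affymetrix arrays. The values used are log2 expression values per probe set as deposited by the authors, made with RMA per the submitters' processing notes. RMA corrects background, quantile-normalizes and summarises probes, which compresses the differences of dim probe sets. The RMA version, and which arrays entered 1 normalization, is not given in the sources used here. No further normalization was applied. Array number, not read depth, limits the precision.

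The members and gene lists were chosen with earlier results of these data known. limma 3.58.1 (R 4.3.3) fitted treatment and genotype as additive terms (9 residual degrees of freedom), and a fit of 4 group means gave each genotype's response and their difference (8). All p-values are moderated and two-sided, and adjusted p-values are Benjamini-Hochberg over 22626 probe sets, after 64 control probe sets were left out of 22690. Values after ± are standard errors. Where a gene had several probe sets the brightest on average was kept, which left 12393 genes, and 20380 probe sets had 1 gene symbol, 691 several and 1555 none in GEO's platform annotation. The naming rule picked the 15 shared genes with the largest change in each direction, Mpg, and the 5 called genes whose responses differed most. It also picked the shared members of each list and up to 4 members with the smallest p. Not all of these genes are mentioned above. Syvn1 and Derl3 were chosen after their values were seen. Replicates are separate animals, and 3 per group limit every comparison. Alternatives covered scaling, filters, variance models, weights per array, blocking on animal number, the 5' to 3' covariate and left-out arrays, in part chosen after seeing the data. The fits were tested on simulated data. Promoters and gene spans are from RefSeq (GRCm38.p6), found by symbol.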

Additional observations from a re-analysis of the deposited data

How the results depend on the processing

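No named gene reversed, which the rule for shared genes makes certain for most alternatives and is no sign of stability. Called for MMS were 2064 probe sets, which became 3410 with array weights and 477 without the 3 MMS arrays of high 5' to 3' difference, an alternative chosen after seeing the data. It was 1361 without the 2 MMS arrays highest in acinar markers, also chosen after seeing the data, where 930 of the 1334 shared probe sets were still called. Leaving out 1 array gave 1059 (without untreated wild-type array 1) to 2923 (without MMS knock-out array 3). Shared probe sets numbered 1334, and 872 with 1 probe set per gene, 2158 without both knock-out arrays numbered 3 (also chosen after seeing the data), 477 without the 3 MMS arrays, and 911 to 2105 without 1 array. Of the 1334, 1225 were still called after quantile normalization, 1084 after median centring and 329 without the 3 MMS arrays, where fewer arrays were tested.

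The count called in both genotypes by the larger p, 0 in limma, was 10 and 32 for a mean log2 of at least 6 and 8, 9 with a trended robust variance, 338 with array weights, 2 with 1 probe set per gene, 11 without both knock-out arrays numbered 3, 114 when each genotype was adjusted separately, and 0 to 14 without 1 array. The separately adjusted count of 114 was itself 0 with the 5' to 3' covariate and 0 to 480 without 1 array. The count for the difference between responses, also 0, was 34 and 52 with those filters, 28 with the trended robust variance, 2344 with array weights, 20 with 1 probe set per gene, 514 without both knock-out arrays numbered 3, and 0 to 158 without 1 array. The cause of these changes was not tested.

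With the animal number as a replicate block 1678 probe sets were called and 1173 shared, and 12 passed separately in both genotypes. Deviations of same-numbered animals correlated from -0.475 to 0.403. Differently numbered animals were not compared, so whether the same number marks a shared batch was not tested. Signal over background was not analysed here, and dim probe sets are limited by it.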
